A study of Mus musculus with 4 samples.

Results

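Immediate-early genes are transcribed within minutes of a growth factor, neuronal or stress signal, without the need for newly made protein. Of 18702 genes listed in each library, 10 were taken by symbol: the FOS family members Fos, Fosb and Fosl2, the JUN family members Jun, Junb and Jund, the stress-response factor gene Atf3, the zinc-finger factor genes Egr1 and Egr2, and Ier2. All 10 were found in every table. RNA came from eye tissue of mouse embryos of the C57BL/6 strain, with 2 libraries from Anp32b+/+ embryos (wild type) and 2 from Anp32b−/− embryos (knockout), and no treatment is named. The title of the series links loss of ANP32B, an acidic nuclear phosphoprotein that binds histones, to eye development and PAX6. The sources used here give neither the embryonic stage nor the sex, the number of embryos per library, the deleted part of Anp32b or the time from dissection to lysis. They do not state that replicate libraries came from separate embryos, so p-values measure only how far these samples vary, which may be technical.

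FOS and JUN proteins pair through leucine zippers into the dimeric factor AP-1, which binds the motif TGACTCA. JUN proteins can also pair with each other, whereas FOS proteins need a partner such as a JUN protein. EGR1 and EGR2 bind GC-rich sites through zinc fingers, and the NAB proteins restrain them. Signals reach these genes mainly through MAP kinases, which act on the serum response factor SRF at CArG boxes and on factors bound at cyclic AMP response elements. In the lens and retina the family is known from responses to growth factors, light and injury, and outside the eye FOS family proteins are known for their part in bone cell development. Tissue dissection itself can induce many of these genes.

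Values are FPKM, which divide the fragments of a gene by its transcript length and by the library's total, so that levels can be compared between genes. Differences are knockout minus wild type on the log2(FPKM + 1) scale, which understates changes at low levels, and a gene is called where limma gave an adjusted p under 0.05 over all 13887 genes whose mean reached 1 FPKM. Low values in the tables put the depth between 17960000 and 18220000 fragments per library. At that depth Egr2, the least abundant member, rested on about 38 to 96 fragments per library, Fosb on about 78 to 296, and Jund, the most abundant, on about 2069 to 2484. Anp32b itself was at 163.18 and 179.12 FPKM in wild-type and at 94.53 and 92.67 FPKM in knockout libraries, where its mean was 54.7% of the wild-type mean. More than 50% of the level thus remained, and as the deleted part is unknown, a value over the whole gene cannot check the label by itself. Over all genes 54.6% were called, 33.5% higher and 21.1% lower, and the median difference was 0.04. Of the called genes 61.3% were higher, a share that was 44.9% after rescaling without crystallin and erythroid genes, 51.6% with median-of-ratios scaling and 80.6% with the deposited TPM values. TPM moved the median of all genes to 0.16, a shift of over 0.1.

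Upstream sequences are shown for 4 members, because they hold matches to motifs of the kinds of factor named above. These are matches of bases alone, and binding to them or their use was not tested. RefSeq start sites on GRCm38.p6 were found for 8 of the members, Fos, Fosb, Fosl2, Jun, Junb, Jund, Atf3 and Egr2. Each stretch lies before a RefSeq start site and outside every exon of the GENCODE annotation. It is written 5′ to 3′ on the gene's own strand, with the matched motif in capitals. That of Egr2 lies inside the gene as GENCODE places it, after other RefSeq start sites of Egr2.
Fos, chr12:85473770-85473889, plus strand: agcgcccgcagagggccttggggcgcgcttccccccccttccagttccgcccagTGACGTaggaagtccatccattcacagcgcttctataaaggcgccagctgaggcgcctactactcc
Fosb, chr7:19310052-19310171, minus strand: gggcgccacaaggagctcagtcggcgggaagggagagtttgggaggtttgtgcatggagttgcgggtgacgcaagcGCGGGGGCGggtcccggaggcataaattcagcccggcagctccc
Jun, chr4:95052223-95052342, minus strand: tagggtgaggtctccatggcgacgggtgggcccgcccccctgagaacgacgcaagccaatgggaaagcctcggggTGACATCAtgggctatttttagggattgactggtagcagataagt
Egr2, chr10:67537749-67537868, plus strand: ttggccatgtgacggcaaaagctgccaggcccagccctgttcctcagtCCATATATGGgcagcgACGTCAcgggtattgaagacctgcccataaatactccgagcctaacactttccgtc
The capitals mark TGACGT, the core of a cyclic AMP response element, in Fos and, on the opposite strand, in Egr2. They mark the EGR motif GCGNGGGCG in Fosb, the AP-1-like motif TGACATCA in Jun and a CArG box in Egr2.

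In all, 6 motifs were searched on both strands of windows of 300 bases, 250 of them before the start site. TGACGT was found in 7.51% of 32851 RefSeq promoter windows, GCGNGGGCG in 5.55%, TGACATCA in 3.62% and the CArG box in 1.63%. The full cyclic AMP response element TGACGTCA, which contains TGACGT, was in 1.79% of windows and TGACTCA in 5.20%, and neither was in the windows of the members searched. Of the members whose stretches are not printed, Fosl2 held GCGNGGGCG and Atf3 held TGACGT just before the RefSeq start site used. Of the 8 members searched, 6 thus held at least 1 of the motifs, and Junb and Jund held none of them. A motif outside these windows would not have been seen, so a window without a match does not show that the gene lacks the motif. At least 1 of the motifs was in 21.9% of all windows, and 24.2% of genes had such a window. Egr2 was searched in 5 windows, 1 for each start site, and each of the other members in 1. The RefSeq start site of Jund lies upstream of the gene as GENCODE places it, so its window is not next to the GENCODE start. The windows of Fosl2 and Atf3 lie inside those genes as GENCODE places them. In the Fosl2 window every base before the start site is in a GENCODE exon, and so is the match.

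All 10 members passed the filter at a mean of 1 FPKM, Egr2 through its knockout values alone. In bulk tissue, fewer cells of a type and less RNA per cell cannot be told apart. Both knockout values lay above both wild-type values in each of them, as in 45.6% of all genes. Of the 10, 9 were called higher and none was called lower, against 33.5% and 21.1% of all genes. Egr2 is among the 9, so the count is not read as support. The median difference of the members was 0.55. Their differences ran from 0.22 to 1.21, from the 73.1st percentile of all genes upward. In the wild type the order of levels ran from Jund through Jun, Ier2, Egr1, Junb, Fos, Fosl2, Atf3 and Fosb to Egr2. Among neighbours in that order, Ier2 and Egr1 did not differ beyond their spread, with 17.54 to 19.49 FPKM against 15.27 to 16.97 FPKM, a gap narrower than the distance between replicates of either gene, and Junb (6.47 to 7.75 FPKM) overlapped Fos (6.74 to 7.10 FPKM).

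**Figure D1:**
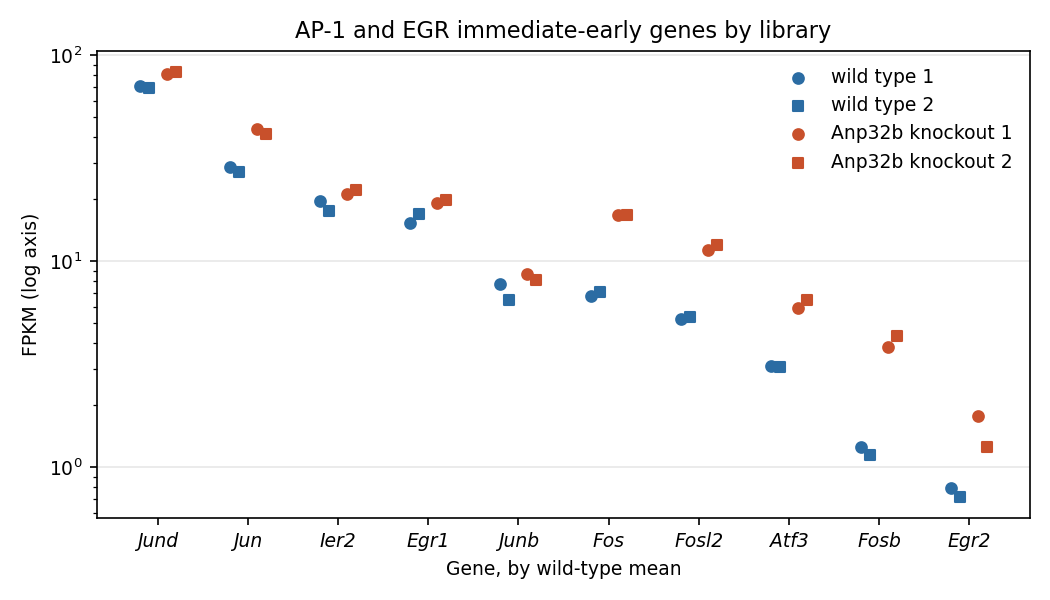
FPKM of each member (vertical log axis) in each of the 4 libraries, with genes ordered by wild-type mean; blue is wild type, orange is knockout, circles are replicate 1 and squares replicate 2. The knockout points lie above the wild-type points for every gene, with a wide gap for Fos, Fosl2, Atf3 and Fosb and a narrow one for Junb, where 7.75 and 8.12 FPKM are the nearest values.

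The FOS family members showed the 3 largest differences among the members. Fos (Entrez 14281, chromosome 12 of GRCm38, 85473890 to 85477273, plus strand), the prototype of the family, was listed at 6.74 and 7.10 FPKM in wild-type samples, against 16.81 and 16.68 FPKM in knockout samples. The groups were far apart and replicates differed little. The difference was 1.16 (SE 0.05, adjusted p = 4.17e-06), and the mean was 2.42 times that of the wild type. Fosb (Entrez 14282, chromosome 7, 19302696 to 19310051, minus strand), known for stable splice forms in stimulated neurons, was near the bottom of the range, at 1.25 and 1.15 FPKM in the wild type and 3.85 and 4.35 FPKM in the knockout. Both knockout libraries were high, with a mean 3.42 times that of the wild type and a difference of 1.21 (SE 0.09, adjusted p = 4.12e-05). Fosl2 (Entrez 14284, chromosome 5, 32135801 to 32157842, plus strand), which encodes FRA-2, a family member of slower and longer induction, was at 5.23 and 5.33 FPKM in the wild type and 11.31 and 11.98 FPKM in the knockout. Its groups did not overlap either, and the mean was 2.21 times that of the wild type (difference 1.01, SE 0.05, adjusted p = 1.17e-05).

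The JUN family was more abundant, and its differences were smaller. Jun (Entrez 16476, chromosome 4, 95049034 to 95052222, minus strand), whose protein is the main partner of FOS, was listed at 28.51 and 27.20 FPKM in the wild type and at 43.62 and 41.62 FPKM in the knockout. The groups were well apart, with a mean 1.53 times that of the wild type and a difference of 0.60 (SE 0.04, adjusted p = 3.27e-05). Jund (Entrez 16478, chromosome 8, 70698949 to 70700616, plus strand), which is expressed in resting cells and is the least inducible of the family, was at 70.92 and 69.08 FPKM in the wild type and 80.57 and 82.82 FPKM in the knockout. It rose by a smaller factor of 1.17 (difference 0.22, SE 0.03, adjusted p = 0.00105). Junb (Entrez 16477, chromosome 8, 84974484 to 84978718, minus strand), an inducible member that can oppose JUN, was at 7.75 and 6.47 FPKM in the wild type and at 8.69 and 8.12 FPKM in the knockout. The nearest values of the groups, 7.75 and 8.12 FPKM, lay closer together than the wild-type replicates did, and it was not past the threshold (difference 0.22, 95% interval 0.02 to 0.41, adjusted p = 0.0602). Without wild-type replicate 1 Junb was called (0.33, adjusted p = 0.0193), and it was called with TPM as well (0.35, adjusted p = 0.0118). Over its alternatives the lowest adjusted p was 0.0118 and the highest 0.281.

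Genes on the opposite strand overlap Jun (Junos), Junb (Prdx2), Jund (Gm11175) and Atf3 (Gm24748, a small RNA gene), and the sources used here do not say if counting used strand. The values of these 4 members are uncertain to that extent. Prdx2, a peroxiredoxin gene, was far more abundant than Junb, at 261.50 and 256.90 FPKM in wild-type and 237.16 and 241.23 FPKM in knockout libraries, and was lower in the latter (−0.12, adjusted p = 0.0120).

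**Figure D2:**
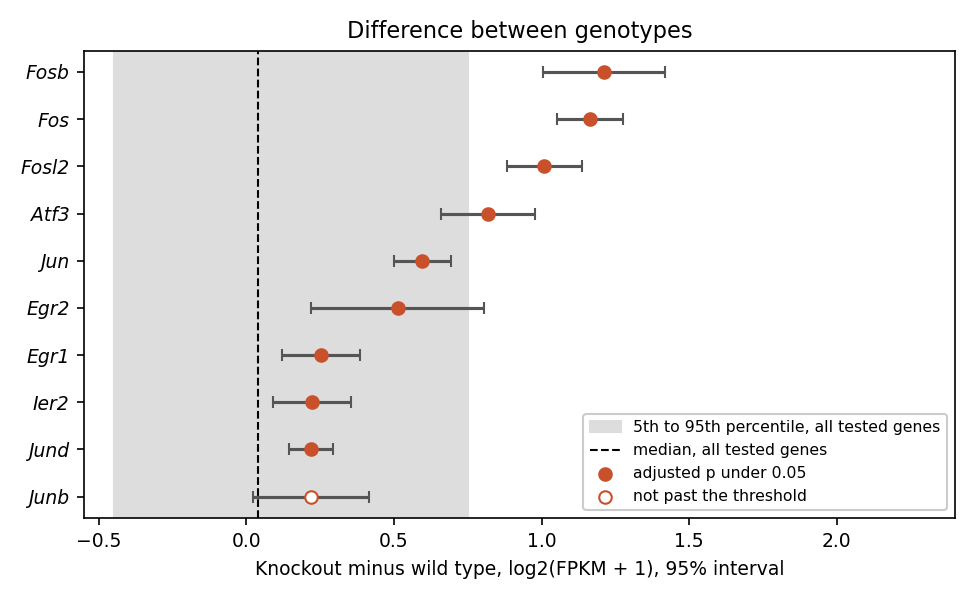
Difference between knockout and wild type on the log2(FPKM + 1) scale for each member, with its 95% interval from limma; the grey band spans the 5th to the 95th percentile of all tested genes and the dashed line their median of 0.04. Fos, Fosb and Fosl2 lie wholly to the right of the band, whereas Egr1, Ier2, Jund and Junb lie within it between 0.22 and 0.25.

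The balance of the families also differed between the groups. The summed FPKM of the 3 FOS genes was 13.22 and 13.58 in the wild type and 31.97 and 33.01 in the knockout. The summed FPKM of the 3 JUN genes was 107.18 and 102.75 in the wild type and 132.88 and 132.56 in the knockout. FOS transcripts thus came to 12.3% and 13.2% of the JUN sum in the wild type and to 24.1% and 24.9% in the knockout. A two-sided exact permutation test of this ratio gave p = 0.333, the smallest that 2 libraries against 2 allow. Within the FOS sum, Fos held 51.0% and 52.3% in the wild type and 52.6% and 50.5% in the knockout, with no separation. The share of Fosb was 9.46% and 8.47% in the wild type and 12.0% and 13.2% in the knockout, and that of Fosl2 was lower in the knockout (35.4% and 36.3%) than in the wild type (39.6% and 39.2%). Within the JUN sum the share of Jund was 66.2% and 67.2% in the wild type and 60.6% and 62.5% in the knockout, while that of Jun was 26.6% and 26.5% in the wild type and 32.8% and 31.4% in the knockout.

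**Figure D3:**
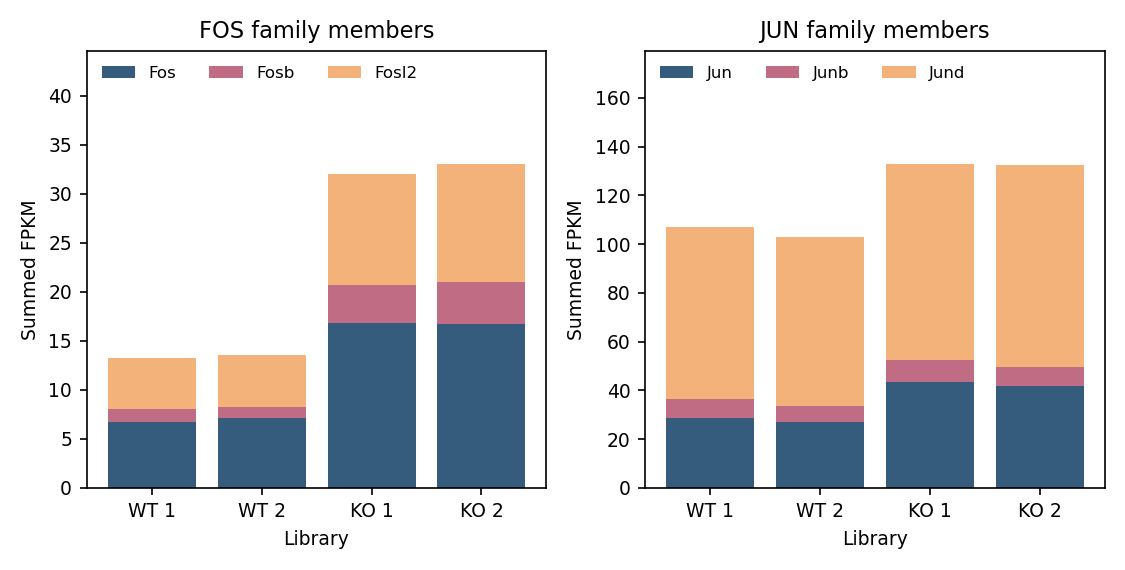
Stacked FPKM of the FOS family members (left) and the JUN family members (right) in each library, with vertical axes from 0 on different scales. The FOS sum stands at 13.22 and 13.58 in the wild type and at 31.97 and 33.01 in the knockout, and most of the JUN sum is Jund in every library.

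Atf3, a factor induced by cell stress that pairs with JUN proteins, was also higher. Atf3 (Entrez 11910, chromosome 1, 191170296 to 191218039, minus strand) was listed at 3.10 and 3.07 FPKM in the wild type and at 5.95 and 6.46 FPKM in the knockout. The groups were well apart, with a mean 2.01 times that of the wild type and a difference of 0.82 (SE 0.07, adjusted p = 7.79e-05).

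Of the EGR genes, Egr1 differed by less, whereas Egr2 reached a similar factor at low levels. Egr1 (Entrez 13653), a target of the ERK pathway, was listed at 15.27 and 16.97 FPKM in the wild type and at 19.05 and 19.70 FPKM in the knockout. The groups did not overlap, and their nearest values, 16.97 and 19.05 FPKM, lay only a little farther apart than the wild-type replicates did. The mean was 1.20 times that of the wild type (difference 0.25, SE 0.06, adjusted p = 0.00733), and the call was lost without knockout replicate 2 (0.23, adjusted p = 0.0768), the highest adjusted p of its alternatives, of which the lowest was 0.000614. Egr2 (Entrez 13654, chromosome 10, 67535475 to 67542188, plus strand), known from hindbrain and Schwann cell development, was low throughout, at 0.79 and 0.72 FPKM in the wild type and 1.77 and 1.26 FPKM in the knockout. Its knockout libraries differed more from each other than any other member's in proportion to the level, and the mean was 2.01 times that of the wild type (difference 0.51, SE 0.12, adjusted p = 0.0112). With wild-type replicate 1 left out the call was lost (0.54, adjusted p = 0.0505), as it was with wild-type replicate 2 left out (0.48, adjusted p = 0.0676) or knockout replicate 1 left out (0.37, adjusted p = 0.0656). The lowest adjusted p of its alternatives was 0.00456.

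Ier2 (Entrez 15936, chromosome 8, 84661331 to 84662852, minus strand), a small immediate-early gene of growth factor responses, was listed at 19.49 and 17.54 FPKM in the wild type and at 21.20 and 22.26 FPKM in the knockout. The nearest values of the groups, 19.49 and 21.20 FPKM, lay closer together than the wild-type replicates did. The difference was 0.22 (SE 0.06, adjusted p = 0.0136). The call was lost after rescaling without crystallin and erythroid genes (0.14, adjusted p = 0.0694) and without wild-type replicate 2 (0.15, adjusted p = 0.0706), knockout replicate 1 (0.26, adjusted p = 0.0584) or knockout replicate 2 (0.19, adjusted p = 0.117). The lowest adjusted p of its alternatives was 0.00162.

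On the scale of FPKM means, 5 members, Fos, Fosb, Fosl2, Atf3 and Egr2, reached at least 2 times the wild-type level, as did 3.93% of all genes tested. Egr2 passed the filter through its knockout values alone, so this count is not read as support either. The 95% intervals of Fos (1.05 to 1.28) and Fosl2 (0.88 to 1.14) did not overlap those of Jun (0.50 to 0.69), Jund (0.15 to 0.29), Egr1 (0.12 to 0.38) or Ier2 (0.09 to 0.35). Nor did they overlap those of Egr2 (0.22 to 0.80) or Junb (0.02 to 0.41). The interval of Atf3 (0.66 to 0.98) overlapped that of Fosl2 but not that of Fos.

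Other genes of the AP-1 class, leucine-zipper factors that can pair with FOS or JUN, were partly higher. Of 10 listed, 8 were tested, 5 were called higher and none lower, with a median of 0.33, and Batf passed the filter through its knockout values alone. After rescaling without crystallin and erythroid genes 4 were called higher and Atf2 lower (−0.11, adjusted p = 0.040). With TPM 6 were called higher and 0 lower. Jdp2, a JUN partner that represses, rose from 9.65 ± 0.35 to 18.2 ± 0.00 FPKM (SD, n = 2, difference 0.85, adjusted p = 1.14e-05). Maff, a small MAF protein, rose from 4.92 ± 0.49 to 8.86 ± 0.66 FPKM (0.74), and Atf7, a relative of ATF2, from 9.90 ± 0.12 to 14.3 ± 0.14 FPKM (0.49). The calls of the other two higher genes, Batf and Mafk, were lost without a filter, and 3 genes were called without wild-type replicate 1, wild-type replicate 2 or knockout replicate 2. Fosl1, the remaining FOS family gene, was listed at no more than 0.04 FPKM in any library. Of the EGR relatives, Egr3 was below the level tested, at 0.35 and 0.48 FPKM in the wild type and 1.22 and 1.31 FPKM in the knockout, and Egr4 stood at 0.00 to 0.02 FPKM. The corepressor gene Nab2, itself an EGR target, rose from 10.7 ± 0.36 to 16.5 ± 0.39 FPKM (0.58, adjusted p = 6.72e-05). Nab1 rose by less (0.20, adjusted p = 0.0105), and not after rescaling without crystallin and erythroid genes (adjusted p = 0.0761) or without wild-type replicate 2 or knockout replicate 1.

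Other early response genes moved both ways. Of 34 listed, 31 were tested, 19 were called higher and 3 lower, with a median of 0.33. The lowest p-values were those of the matricellular genes Ccn1 (17.6 ± 0.18 to 38.2 ± 1.22 FPKM, difference 1.08, adjusted p = 2.43e-06) and Ccn2 (18.1 ± 0.11 to 32.4 ± 0.19 FPKM, 0.81) and of the orphan nuclear receptor gene Nr4a1 (6.93 ± 0.59 to 13.9 ± 0.35 FPKM, 0.91). The lower genes were Gadd45a (−0.63), a growth arrest gene, Ier5 (−0.38) and Trib1 (−0.15), the last not called with TPM, without a filter or with any one of wild-type replicate 1, knockout replicate 1 and knockout replicate 2 left out. Arc and Npas4, early genes of active neurons, were below the level tested, at 0.45 to 0.56 FPKM and 0.67 to 1.10 FPKM over the 4 libraries.

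Genes of the signalling steps upstream differed by list. Of SRF, its ternary complex factors and its actin-responsive cofactors, 4 of 6 were called higher and none lower, with a median of 0.29. These were Elk3 (0.56), Srf (0.40), Mrtfa (0.36) and Mrtfb (0.22, not called without wild-type replicate 1 or knockout replicate 1), while Elk1 (0.04) was called only with TPM and Elk4 (−0.06) was not past the threshold. Of 8 MAP kinases and their activators 3 were called higher, led by Map2k1 (0.39, adjusted p = 0.000354) and Mapk3 (0.25), which encodes ERK1, and 2 lower, Mapk10 (−0.27) and Map2k2 (−0.11), with a median of 0.04 beside 0.04 for all genes, so that the kinases stood near the background of 33.5% higher and 21.1% lower. Mapk14 (0.16), the remaining higher gene, was no longer called without a filter or under either rescaling of FPKM. With TPM 5 of the 8 were called higher and 0 lower. Both lower calls were also lost with wild-type replicate 1 or knockout replicate 2 left out, Mapk10 also without wild-type replicate 2 and Map2k2 also without knockout replicate 1. Among inhibitors of the same pathway, 9 of 12 were higher and none lower, with a median of 0.25, and Dusp2 passed the filter through its knockout values alone. Spry1 rose from 14.2 ± 1.07 to 23.0 ± 0.63 FPKM (0.66, adjusted p = 9.10e-05), Dusp10 from 4.45 ± 0.06 to 7.23 ± 0.02 FPKM (0.60) and Spred2 from 11.9 ± 0.27 to 15.9 ± 0.15 FPKM (0.39). The ERK phosphatase genes Dusp1 (0.20) and Dusp6 (0.11) and the inhibitor gene Spred1 (0.14) were no longer called under either rescaling of FPKM, which left 6 of 12.

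Genes described as AP-1 targets moved in both directions. Of 12 listed, 10 were tested, 8 were called higher and 2 lower. Of the higher genes, Mmp13, Mmp9 and Ibsp passed the filter through their knockout values alone, so the count is not read as support. The genes not tested, Mmp3 (0.27 to 0.42 FPKM) and Il6 (0.05 to 0.15 FPKM), were low in every library, and with all 12 included the median was 0.75. Spp1 (2.72) and Ibsp (4.69), genes of mineralised bone matrix, had the lowest p-values, and both are also on the osteoblast list. Mmp13, a collagenase of bone and cartilage, was at 0.14 and 0.08 FPKM in the wild type and 3.99 and 4.24 FPKM in the knockout. Plau (0.77) and Plaur (0.63), of the urokinase system, and Timp1 (1.17), an inhibitor of metalloproteinases, were higher. The lower members were Ccnd1 (−0.91), the D-type cyclin that is abundant in retinal progenitors, and Hmox1 (−0.96), the haem oxygenase gene.

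**Figure D4:**
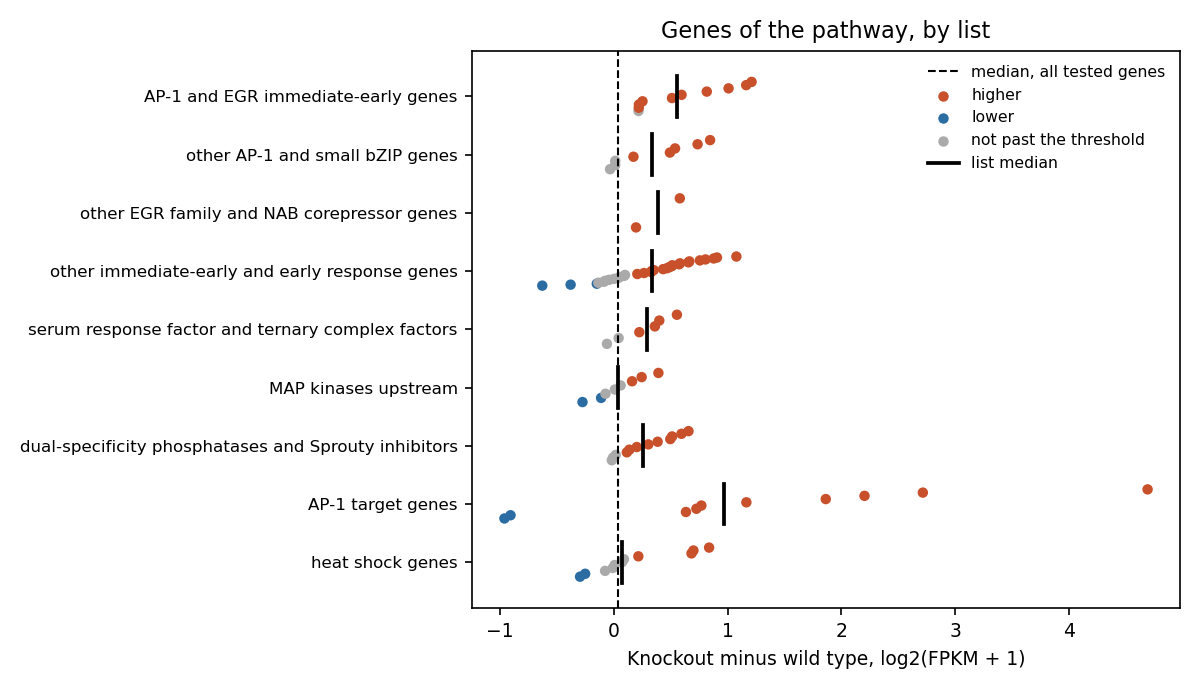
Difference between knockout and wild type on the log2(FPKM + 1) scale (horizontal axis) for every tested gene of each pathway list; points are genes, coloured by call, black bars are list medians and the dashed line is the median of all tested genes. The members have a median of 0.55, other early response genes one of 0.33 and the MAP kinases one of 0.04.

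Heat shock genes, which respond to cell stress and to handling of tissue, went both ways in the same libraries. Of 11 tested, 4 were called higher and 2 lower, with a median of 0.07. This was near the background of 33.5% higher and 21.1% lower, with a median of 0.04, over all genes. Hspb1 rose from 58.1 ± 3.66 to 104.5 ± 0.50 FPKM (0.84, adjusted p = 1.09e-05), and the inducible genes Hspa1a (0.68) and Hspa1b (0.70), close copies of each other between which shared reads make the values uncertain, were higher as well. Dnajb1 (−0.30) and Hsp90aa1 (−0.25), also inducible by heat, were lower, and after rescaling without crystallin and erythroid genes 4 were called in each direction. With TPM 8 were higher and 2 lower. The part of tissue handling in the values of the immediate-early genes was not tested.

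Cell type markers also differed between the groups, in both directions. Lens markers were lower in 10 of 10 genes, and their summed level fell from between 32038 and 32709 FPKM to between 3201 and 3225 FPKM. Retina markers were called lower in 9 of 12 and higher in 2 (Crx and Atoh7), with sums of 896.4 and 897.9 FPKM in the wild type and 690.1 and 701.2 FPKM in the knockout. Atoh7 was no longer called under either rescaling of FPKM (adjusted p = 0.610 and 0.168) or with any one library left out. Among pigment cell markers 4 of 6 tested were lower, with sums of 408.6 and 405.3 FPKM against 315.8 and 313.2 FPKM, and Rpe65 was listed at 0.00 to 0.06 FPKM. With TPM Rax and Rlbp1 were no longer called, which left 8 retina and 3 pigment cell markers lower. After rescaling without crystallin and erythroid genes 10 and 5 were lower.

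Mesenchyme markers were higher in 8 of 8 genes, with sums of 1353 and 1330 FPKM in the wild type and 2961 and 2978 FPKM in the knockout, and a median difference of 1.16. Skeletal muscle markers were higher in 8 of 8 (sums of 1370 and 1427 FPKM against 2841 and 2870 FPKM, median 1.06), and surface epithelium markers in 7 of 7 (559.0 and 582.4 FPKM against 1164 FPKM in each knockout library, median 0.98). Osteoblast markers were higher in 6 of 6, with sums of 20.7 and 19.5 FPKM against 162.2 and 163.7 FPKM, and Ibsp and Sp7 passed the filter through their knockout values alone, as did Adgre1 among macrophage markers. Macrophage markers were higher in 8 of 8 (53.1 and 46.8 FPKM against 90.5 and 96.8 FPKM), endothelial markers in 4 of 6 with Kdr lower (120.3 and 118.4 FPKM against 140.0 and 140.2 FPKM), and erythroid markers in 5 of 5 tested (6279 and 6736 FPKM against 9617 and 9941 FPKM). Under either rescaling of FPKM Alas2 was no longer called, which left 4 of 5 erythroid markers higher. No marker was at 0 in every library. The rises of Fos (1.16) and Fosl2 (1.01) were of the size of the mesenchyme, muscle and surface epithelium medians. Those of Atf3 (0.82), Jun (0.60), Egr2 (0.51), Egr1 (0.25), Ier2 (0.22), Jund (0.22) and Junb (0.22, not called) were smaller. Medians of the other lists with higher sums were 1.98 (osteoblast), 0.71 (endothelium), 0.60 (erythroid) and 0.56 (macrophage). The rise of Fosb (1.21) was near the mesenchyme, muscle and surface epithelium medians only on this scale. With a pseudocount of 0.1 it was 1.69, against medians of 1.17, 1.07 and 1.03 for the same lists. The part of these cell types in the values of the members was not tested.

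**Figure D5:**
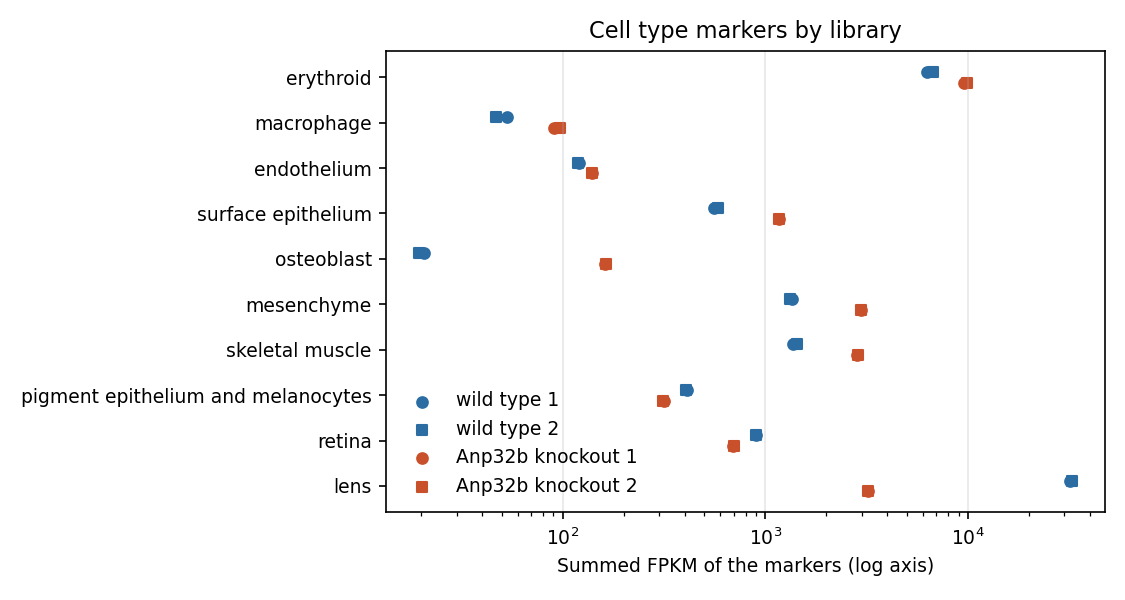
Summed FPKM of each cell type marker list (horizontal log axis) in each library; blue is wild type, orange is knockout, circles are replicate 1 and squares replicate 2. Lens, retina and pigment cell sums are lower in the knockout and the other 7 sums are higher, with the osteoblast sum going from 20.7 and 19.5 to 162.2 and 163.7 FPKM.

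The genes nearest in pattern to the members were sought over the 4 libraries among 10600 other genes whose mean reached 5 FPKM, by the Euclidean distance between log2(FPKM + 1) values centred over the libraries and the mean centred profile of the 10 members. The nearest were Selenom (distance 0.01), Igf2r (0.01), Mme (0.02), Adamts9 (0.02) and Nrap (0.02). Igf2r, the receptor that clears insulin-like growth factor II, had 21.24 and 20.81 FPKM in wild-type and 32.53 and 32.70 FPKM in knockout libraries. Jun was at 0.06 by the same measure and Fosb at 0.60. The named genes were picked as the nearest of 10600, so their smaller distances do not show how alike the members were. With 4 libraries in 2 groups the measure mostly reads the size of the difference between genotypes.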

How the data were processed

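The authors deposited 1 table per library with FPKM values, and with TPM values, which have the same sum in every library, per the file headers. The submitters' processing notes list DESeq, Cufflinks, TopHat and HISAT2 with neither version nor role, beside the builds GRCh38 and GRCm38. The sources used here do not give the annotation, any filter or the use of strand. No counts are in the tables. Low FPKM values of genes with 1 GENCODE transcript, 197 to 221 per library, were used to estimate depth. The depth chosen was that which brought these values nearest to whole numbers of fragments. At that depth 62.5% to 67.8% lay within 0.15 of a whole number. Chance gives 30% only at a depth fixed beforehand, so the 2 shares are not comparable. Counts were not recovered, and depths are estimates. Fragments per gene were computed with the longest coding transcript. Replicates differed beyond counting noise (chi-square per gene 1.98 and 1.86) and were kept as 2 samples.

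The main test was limma 3.58.1 under R 4.3.3, fitted to log2(FPKM + 1) with a trend in variance, over genes whose mean reached 1 FPKM, with genotype alone as term and two-sided Benjamini-Hochberg adjustment over all genes; the code was tested on simulated data. Members and lists were chosen with earlier results of these data known, so counts over lists are descriptions, and no set test was run. Named were all members and, of the pathway lists, all genes of lists of 6 or fewer and up to 3 genes of lowest p per list; marker lists are given by counts and summed levels, and other genes named were chosen after their values were seen. Positions are from the GENCODE annotation of GRCm38, promoters from RefSeq (GRCm38.p6). Alternatives were a pseudocount of 0.1, no filter, a mean of at least 5 FPKM, a replicate block, 2 rescalings, TPM, a fold threshold and each library left out.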

Additional observations from a re-analysis of the deposited data

How the results depend on the processing

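No member changed direction under any alternative tried. Fos, Fosb, Fosl2, Jun, Jund and Atf3 were called higher in each alternative without a fold threshold in which they were tested, and Junb, Egr1, Egr2 and Ier2 were not. The number of members called higher was 9, and 7 to 9 with 1 library left out, where a lone library is assumed to vary like the other group; it was 8 after rescaling without crystallin and erythroid genes, 10 with TPM and 6 of 7 tested at a mean of at least 5 FPKM. With a log2 fold change of at least 1 it was 3 (Fos, Fosb and Fosl2), and over all genes 211 were higher and 115 lower in place of 4654 and 2932. With TPM 1667 genes were called lower. Calls over all genes ran from 3373 to 3937 higher and from 2042 to 2288 lower with 1 library left out. With the replicate number as a block 10 members were called, Junb among them (adjusted p = 0.0160), and 4781 genes were higher and 3047 lower. The samples share only a number: the deviations of wild-type 1 and knockout 1 from their group means had a correlation of 0.077 across 10607 genes. The low depth behind Egr2 (about 38 to 96 fragments) and Fosb limits the precision of their fold changes, and a pseudocount of 0.1 gave 0.90 for Egr2 and 1.69 for Fosb.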
